A study of Mus musculus with 11 samples.

Results

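Total RNA from lungs of mice lacking 4E-BP1 and 4E-BP2 was compared with total RNA from wild-type lungs. The comparison used 6 of the study's 11 arrays, 3 of knockout and 3 of wild-type total RNA, chosen by labelled genotype and kind of RNA. The knockout mice were Balb/c of the labelled genotype 4ebp1-/-/4ebp2-/-, with Eif4ebp1 and Eif4ebp2 both disrupted. They came from a line given by another laboratory, while the Balb/c wild-type mice were bought from a breeder, so genotype and source of the mice cannot be told apart. Mice of both genotypes were fed the purified diet AIN-93M from 5 weeks of age, and no other treatment is named. The sources used here give no age at which the lungs were taken. Each array was hybridised with material from 100 ng of RNA after a labelling kit with 2 cycles of amplification. The remaining 5 arrays, 2 wild-type and 3 knockout, held RNA from the heavy polysomal fractions of such lungs and are set beside the total RNA where they bear on it. They also enter the fit, which takes its estimate of the spread from all 11 arrays. Nothing in the labels ties an array to a single mouse. The p-values therefore rest on the spread from array to array, which may be technical.

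The 4E-BPs are small repressor proteins that bind eIF4E, the factor that recognises the cap of a message, and keep it from assembling the complex that loads ribosomes. The kinase mTOR phosphorylates them and so releases eIF4E. Loss of the 4E-BPs therefore acts first on translation, and an array of total RNA reads the amount of each message, not how well it is translated. The lung holds alveolar epithelium, airway epithelium with secretory club cells and ciliated cells, a dense capillary bed, matrix-producing mesenchyme and resident immune cells, and bulk RNA mixes them all.

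Values are log2 signals per probe set, with array medians of 4.96 to 5.04, and a difference of 1 is a doubling. Of 26180 probe sets, 13802 reached 5 log2 on at least 2 of the 11 arrays and were tested, and they represented 8085 named genes. The dim probe sets that were not tested had medians of 2.43 to 2.49 on the wild-type and 2.34 to 2.39 on the knockout total arrays, which is taken as the floor. Wild-type replicate 3 stood apart. It correlated with the other wild-type arrays at r = 0.977 and 0.982 over the genes tested, and 349 genes on it lay more than 1 log2 unit from the mean of the other arrays of its group, against 37 to 152 on the others. The knockout total arrays were also closer to the wild-type polysomal mean (r = 0.857 to 0.867 over the genes tested) than the wild-type total arrays were (r = 0.789 to 0.822). The labels also give unexplained set letters, with 1 knockout and 2 wild-type total arrays in set A and 2 and 1 in set B, and differences within a set are given as values without a test. List counts and printed list medians that move by over 1.5 times, or turn sign, without wild-type replicate 3 are given both ways. Sex-linked genes lay between 2.19 and 3.97 log2 on the total arrays and none reached the level for testing.

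The targeted genes were examined first. Eif4ebp2 stood at 4.50, 5.49 and 4.67 log2 on the wild-type arrays and 2.61, 3.10 and 3.26 on the knockout arrays. The knockout values were dim and did not overlap the wild-type values, for a fall of 1.90 log2 units (SE 0.25, limma adjusted p = 0.0016). Eif4ebp1 stood at 8.25, 8.54 and 8.20 log2 on the wild-type arrays and 7.94, 7.92 and 7.93 on the knockout arrays. It was thus lower by 0.40 in knockout lung without approaching the floor (SE 0.11, limma adjusted p = 0.033), a call lost without knockout replicates 1, 2 or 3 or wild-type replicates 1 or 2 (limma adjusted p = 0.061 to 0.096). The position of its probes within the disrupted gene is unknown here, and so its level is no check of the labels. Eif4ebp3, the remaining gene of the family, stood at 9.69, 9.80 and 9.98 log2 on the wild-type arrays and 9.73, 9.70 and 9.60 on the knockout arrays and was not called (-0.15, SE 0.11, limma adjusted p = 0.36). Eif4e itself, the protein that all of them bind, stood at 10.09, 9.98 and 10.17 log2 on the wild-type arrays and 9.45, 9.69 and 9.48 on the knockout arrays. The groups did not overlap, which held for 42% of all genes tested, and Eif4e fell by 0.54 (SE 0.09, limma adjusted p = 0.0039).

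Across the genome, 1876 of 8085 genes (23.2%) were called in limma at an adjusted p under 0.05. In knockout lung 1393 genes (17.2%) were higher and 483 (5.97%) lower, so that 74.3% of the called genes were higher. That split depends on how arrays are scaled to each other. Quantile normalization gave 60.6% higher and equal array medians 55.2%. Over all genes tested the median difference was 0.09 log2 units, and it was 0.02 and -0.01 under those scalings. Equal medians changed the median of each gene list below by -0.10, so a list median under 0.10 turns below 0 there. Shares of a list that are called are to be read against the 23.2% of all genes. Knockout and wild-type total arrays did not overlap for 3394 of the 8085 genes (42%), among them 1854 of the 1876 called. Lack of overlap was also required of the called genes named by rule below, except the 4E-BP and eIF4E genes. It is therefore no result for the genes so named. Most changes were small. The median called rise was 0.69 and the median called fall 0.57 log2 units, 314 genes were at least 2-fold higher and 54 at least 2-fold lower, and 23 and 2 genes passed 4-fold. Of the called genes 519 higher and 252 lower ones lay under 1.5-fold.

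The design was precise for many genes. The median SE of a difference was 0.14, and for 3088 genes (38.2%) the 95% interval of the difference lay within 0.5 log2 units of 0 on both sides, 3048 of them uncalled. Among them were several genes picked after their values were seen for what they mark. Scgb1a1, the main secretory protein of club cells, stood at 16.49, 16.53 and 16.46 log2 on the wild-type arrays and 16.49, 16.40 and 16.51 on the knockout arrays (95% interval of the difference -0.20 to 0.14). Its values lay at or near the highest signal of each total array (16.40 to 16.68 log2). A difference may be compressed there, so its narrow interval does not show that the message was unchanged. Csf1r, the growth factor receptor of macrophages, stood at 9.99, 10.02 and 10.03 log2 on the wild-type arrays and 9.98, 10.03 and 9.97 on the knockout arrays (-0.19 to 0.15). Cdh5, the cadherin of endothelial junctions, stood at 6.05, 6.03 and 5.92 log2 on the wild-type arrays and 5.99, 6.23 and 6.01 on the knockout arrays (-0.33 to 0.48), and Mtor at 5.46, 5.51 and 5.45 log2 on the wild-type arrays and 5.59, 5.43 and 5.43 on the knockout arrays (-0.26 to 0.28). The wild-type and knockout values of these genes overlapped. At the other end, 622 uncalled genes had an interval that reached past 1 log2 unit either way, so a doubling is not excluded for them.

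**Figure D1:**
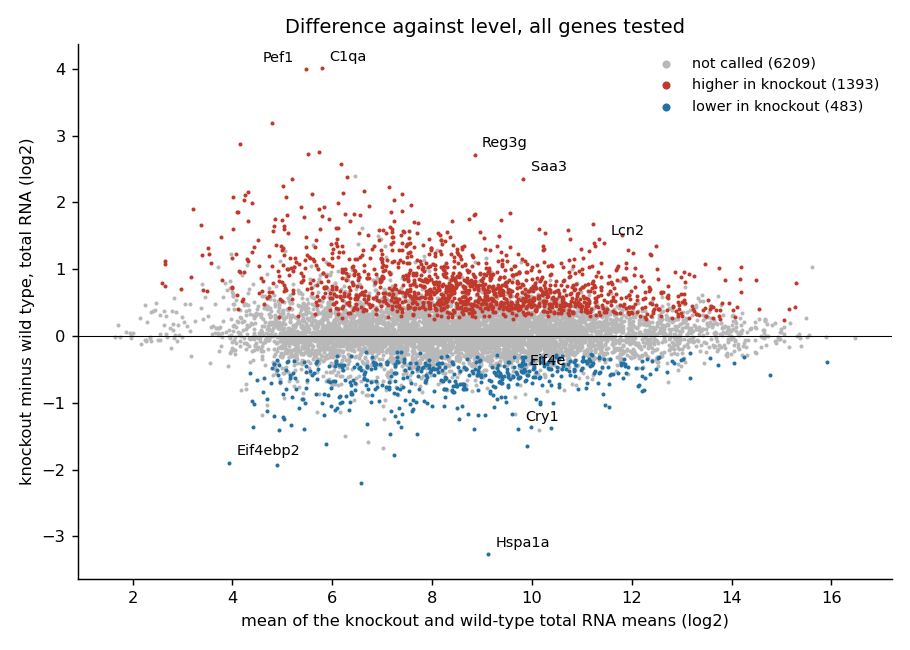
Each point is 1 of the 8085 genes tested, with the mean of its knockout and wild-type total RNA means on the x axis and knockout minus wild type on the y axis, both in log2 units. Red points are the 1393 genes called higher in knockout, blue the 483 called lower. The highest points, C1qa and Pef1, sit toward the low end of the x axis.

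The largest rises among well-expressed genes were in secreted defence proteins of the airway. Reg3g, an antimicrobial lectin, stood at 8.02, 8.12 and 6.34 log2 on the wild-type arrays and 9.88, 10.33 and 10.43 on the knockout arrays. Every knockout array was above every wild-type array, and wild-type replicate 3 was lowest, for a rise of 2.72 (SE 0.41, limma adjusted p = 0.0025). Saa3, an acute phase apolipoprotein, stood at 8.85, 8.09 and 9.01 log2 on the wild-type arrays and 10.79, 10.96 and 11.27 on the knockout arrays and rose by 2.36 (SE 0.31, limma adjusted p = 0.0015). Of 24 tested members of the list of acute phase and airway defence genes, 15 rose, none fell and 9 were not called. That is 62.5% called, against 23.2% of all genes, and the median difference was 0.82 against 0.09. Lcn2, which sequesters bacterial iron carriers, was at 10.78, 10.84 and 10.59 in wild type and 11.90, 12.23 and 12.29 in knockout (1.40, SE 0.13, limma adjusted p = 0.00037). Ltf, the iron-binding lactoferrin, was at 9.78, 10.20 and 9.83 and 11.48, 11.30 and 11.79 (1.59, SE 0.19, limma adjusted p = 0.001). Both were tight within each genotype and separate between them. Muc1, a membrane mucin, rose by 0.92 from 9.91, 9.94 and 9.86 to 10.59, 11.02 and 10.86 (SE 0.12, limma adjusted p = 0.0014). Hp, haptoglobin, rose by 0.85 (SE 0.13, limma adjusted p = 0.0031), and Scgb3a1, a secretoglobin of the upper airways, rose from 12.54, 12.87 and 12.61 to 13.43, 13.60 and 13.77 (0.92, SE 0.13, limma adjusted p = 0.0021). The count was 12 to 15 with any array left out and 13 without wild-type replicate 3.

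Lcn2 and Ltf are also made by neutrophils, whose markers are given beside them. These were the 2 of 9 tested neutrophil markers that rose, a share (22.2%) close to that of all genes, and the median over the list was -0.08. S100a8 and S100a9, its members with the highest wild-type signals, were picked after their values were seen. S100a8 stood at 11.75, 10.98 and 14.37 log2 on the wild-type arrays and 11.96, 12.09 and 12.14 on the knockout arrays, and S100a9 at 10.35, 9.68 and 12.40 log2 on the wild-type arrays and 10.45, 10.85 and 10.91 on the knockout arrays. Wild-type replicate 3 was the highest of the 6 arrays for both, and neither was called. Averaged over its members on each array, the list spanned 8.43 to 10.0 log2 in wild type and 8.92 to 9.39 in knockout. Its median became 0.61 without wild-type replicate 3, with 3 members higher. The part that neutrophils play in the rise of Lcn2 and Ltf was not tested. As in any bulk sample, fewer cells of a type and less RNA per cell cannot be told apart.

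The largest fall of any named gene tested was in Hspa1a, the inducible HSP70 chaperone, at 11.43, 11.83 and 9.01 log2 on the wild-type arrays and 8.21, 7.15 and 7.09 on the knockout arrays. All knockout arrays were below all wild-type arrays, but wild-type replicate 3 was well below the other wild-type arrays and the SE was wide (fall of 3.27, SE 0.67, limma adjusted p = 0.0084). The difference was -3.42 within set A of the replicate letters and -1.89 within set B. Hspa1b is a near-identical copy, and the probe set may read both. Of 25 tested heat shock chaperones 3 rose and 4 fell, against 17.2% and 5.97% of all genes, so there was no common direction. Hspa2, a related HSP70, fell from 10.62, 10.41 and 10.35 to 10.02, 10.01 and 10.03 (-0.44, SE 0.09, limma adjusted p = 0.0073). Hsp90ab1, the constitutive HSP90, rose from 10.91, 11.11 and 10.48 to 11.89, 12.04 and 11.87 (1.10, SE 0.15, limma adjusted p = 0.0016). Serpinh1, the collagen chaperone of the endoplasmic reticulum, rose as well (0.73, SE 0.14, limma adjusted p = 0.0073). Without wild-type replicate 3 the fallen members numbered 8, and they numbered 2 without wild-type replicate 1 or 2 or knockout replicate 2. The risen numbered 5 without wild-type replicate 2. Equal medians and quantile scaling each gave 6 lower.

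Cry1, a repressor of the circadian clock, stood at 10.71, 10.55 and 10.01 log2 on the wild-type arrays and 9.06, 8.99 and 9.06 on the knockout arrays. The knockout values lay within 0.07 log2 units of each other, all below wild type, for a fall of 1.39 (SE 0.19, limma adjusted p = 0.0017). Usp2, a deubiquitinase with clock-driven expression, fell from 8.16, 7.97 and 7.44 to 7.24, 6.19 and 6.54 (-1.20, SE 0.29, limma adjusted p = 0.017), a call lost without knockout replicates 2 or 3 or wild-type replicate 1 (limma adjusted p = 0.052 to 0.067). Rora, a nuclear receptor that activates clock genes, rose from 5.05, 5.10 and 5.01 to 6.06, 7.42 and 6.91 (1.75, SE 0.30, limma adjusted p = 0.004), and Nr1d1, its opposing repressor, rose from 2.99, 3.24 and 3.24 to 4.50, 5.32 and 5.20 (1.85, SE 0.33, limma adjusted p = 0.005). With 11 further members uncalled, 2 of 15 clock genes were thus higher and 2 lower (26.7% called), and the median was 0.01, or -0.10 without wild-type replicate 3. Another 9 of the 24 listed clock genes were too dim to test, so the list speaks for its more abundant members. The fallen numbered 4 without wild-type replicate 3 and 1 without wild-type replicate 1 or knockout replicate 2 or 3, and the risen 4 without either wild-type polysomal array. Per1, picked after its values were seen, ran from 4.74 to 7.81 on the knockout arrays and was not called.

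Promoters of these genes were read because Hspa1a and Cry1 gave the largest called falls of their groups and because both groups have well-known control elements. Windows from RefSeq on GRCm38.p6 ran from 250 bases before to 50 after the transcription start, and 6478 of the tested genes had one or more. The letters searched on both strands were GAANNTTC, the core of the heat shock element, and CACGTG, the E-box of clock proteins. TTATGTAA, the D-box, a further clock element, was searched as well. In the Hspa1a window, chr17:34972107-34972406 on the minus strand, the capitals mark the heat shock core, which starts 104 bases before the transcription start. In that of Chordc1, chr9:18292017-18292316 on the plus strand, a cochaperone gene shown after its values were seen, they mark 2 such cores, the first of them 4 bases before the start. In that of Cry1, chr10:85185005-85185304 on the minus strand, they mark the E-box, 60 bases before the start.
Hspa1a: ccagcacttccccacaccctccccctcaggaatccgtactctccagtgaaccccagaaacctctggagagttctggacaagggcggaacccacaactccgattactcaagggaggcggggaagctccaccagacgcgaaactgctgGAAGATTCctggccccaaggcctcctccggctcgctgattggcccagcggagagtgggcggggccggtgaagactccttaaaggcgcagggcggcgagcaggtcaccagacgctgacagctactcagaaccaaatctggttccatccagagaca
Chordc1: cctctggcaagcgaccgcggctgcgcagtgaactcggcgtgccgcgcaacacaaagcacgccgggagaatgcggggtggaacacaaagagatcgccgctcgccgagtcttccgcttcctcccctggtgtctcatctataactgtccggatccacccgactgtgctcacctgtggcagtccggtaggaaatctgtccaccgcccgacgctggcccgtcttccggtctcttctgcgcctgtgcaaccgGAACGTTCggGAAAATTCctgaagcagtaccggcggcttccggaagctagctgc
Cry1: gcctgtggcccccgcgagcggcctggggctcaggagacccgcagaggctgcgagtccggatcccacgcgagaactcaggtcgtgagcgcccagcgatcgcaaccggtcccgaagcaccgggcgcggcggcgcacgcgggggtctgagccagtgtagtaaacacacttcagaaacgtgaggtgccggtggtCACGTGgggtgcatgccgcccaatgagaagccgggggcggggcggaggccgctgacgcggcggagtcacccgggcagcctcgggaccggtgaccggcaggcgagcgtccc
Among all 32851 windows, 7.86% held the heat shock core and 7.15% the E-box. The core was found in 11 of 27 windows of tested chaperone genes (40.7%) and in 2 of the 7 windows of those called, the Hspa1a and Chordc1 windows. Chordc1 stood at 12.60, 13.03 and 12.33 log2 on the wild-type arrays and 12.05, 11.68 and 11.79 on the knockout arrays (-0.81, SE 0.20, limma adjusted p = 0.019). The windows of Hspa2 and Serpinh1 held no match, nor did those of Usp2, Rora and Nr1d1 for the E-box. Of 20 windows of tested clock genes 5 held the E-box (25%), and that of Cry1 was the 1 among 4 windows of the called genes. Over called genes as a whole the heat shock core was in 5.48% of windows of the risen and 6.43% of the fallen, and the E-box in 11.6% and 11.4%, against 5.56% and 10.2% for all tested genes. The D-box was in 9 windows of the risen (0.632%) and 8 of the fallen (1.66%), against 0.541% for all tested genes. No window of a tested clock gene held it. A match describes the letters of the window and does not show that a factor binds there.

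Several of the largest rises were in signalling and regulatory genes that do not belong to one pathway. Alkbh5, a demethylase of RNA, stood at 6.52, 6.19 and 5.32 log2 on the wild-type arrays and 7.91, 8.71 and 8.12 on the knockout arrays (2.24, SE 0.30, limma adjusted p = 0.0016). Cic, a transcriptional repressor downstream of growth factor signalling, stood at 6.26, 6.48 and 6.26 log2 on the wild-type arrays and 8.85, 8.26 and 8.26 on the knockout arrays (2.13, SE 0.17, limma adjusted p = 0.00019). Wild-type values of Cic lay within 0.22 log2 units of each other, so this was among the better-measured large rises. Mapkapk2, a kinase activated by the stress kinase p38, stood at 6.58, 6.79 and 6.02 log2 on the wild-type arrays and 8.12, 8.55 and 8.32 on the knockout arrays (1.87, SE 0.22, limma adjusted p = 0.001). Arhgdia, an inhibitor of small GTPases, stood at 8.81, 8.86 and 8.23 log2 on the wild-type arrays and 10.27, 10.70 and 10.47 on the knockout arrays (1.84, SE 0.17, limma adjusted p = 0.0003). In each of these 4 genes the lowest knockout array was more than 1 log2 unit above the highest wild-type array. Cdc42bpb, a Cdc42-binding kinase, rose from 6.52, 7.59 and 5.68 to 8.53, 8.58 and 8.57 (1.96, SE 0.39, limma adjusted p = 0.0073), and Oplah, an enzyme of glutathione turnover, from 6.56, 7.16 and 4.91 to 8.13, 8.48 and 8.13 (2.04, SE 0.45, limma adjusted p = 0.012). Cldn3, an epithelial tight junction protein, rose from 8.34, 8.52 and 6.96 to 9.33, 9.80 and 10.14 (1.81, SE 0.37, limma adjusted p = 0.0081), and Bri3, a small membrane protein, from 8.61, 8.46 and 6.53 to 9.48, 9.80 and 9.57 (1.75, SE 0.45, limma adjusted p = 0.021). Wild-type replicate 3 was the lowest array for these last 4 genes, and their differences were 0.90 to 1.47 within set A and 2.89 to 3.40 within set B. Without wild-type replicate 3 the rise of Bri3 was 1.08. The call for Bri3 was lost without knockout replicates 2 or 3 (limma adjusted p = 0.052 to 0.076). A fit of the 6 total arrays alone called neither Bri3 nor Oplah.

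Among the large falls, Zfp959, a zinc finger gene, stood at 9.49, 9.69 and 9.41 log2 on the wild-type arrays and 8.25, 7.76 and 8.42 on the knockout arrays (-1.39, SE 0.16, limma adjusted p = 0.00076). Srpr, the receptor that docks the signal recognition particle at the endoplasmic reticulum, stood at 10.65, 11.08 and 10.27 log2 on the wild-type arrays and 9.24, 9.42 and 9.26 on the knockout arrays (-1.36, SE 0.18, limma adjusted p = 0.0015). Elmod1, a regulator of small GTPases, stood at 8.38, 8.30 and 7.49 log2 on the wild-type arrays and 6.63, 6.83 and 6.62 on the knockout arrays (-1.36, SE 0.20, limma adjusted p = 0.0024). All falls given here were picked among called genes without overlap between genotypes. Esm1, a proteoglycan secreted by endothelium, fell from 10.51, 11.40 and 11.32 to 9.53, 9.67 and 9.89 (-1.37, SE 0.27, limma adjusted p = 0.0067), and Clec1b, a platelet receptor, from 8.02, 7.93 and 7.94 to 6.46, 7.09 and 6.49 (-1.28, SE 0.20, limma adjusted p = 0.0028). Hectd2, a ubiquitin ligase, fell from 8.74, 8.25 and 8.31 to 6.80, 6.38 and 7.71 (-1.47, SE 0.28, limma adjusted p = 0.0065), and Coq10b, which assists coenzyme Q in mitochondria, from 9.35, 9.55 and 8.57 to 7.82, 7.91 and 7.99 (-1.25, SE 0.24, limma adjusted p = 0.0065). Doc2a, a calcium sensor of vesicle release, fell from 6.85, 7.02 and 8.22, highest on replicate 3, to 6.06, 5.98 and 6.08 (-1.32, SE 0.29, limma adjusted p = 0.011). The call for Doc2a was lost in a fit of the 6 total arrays alone.

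**Figure D2:**
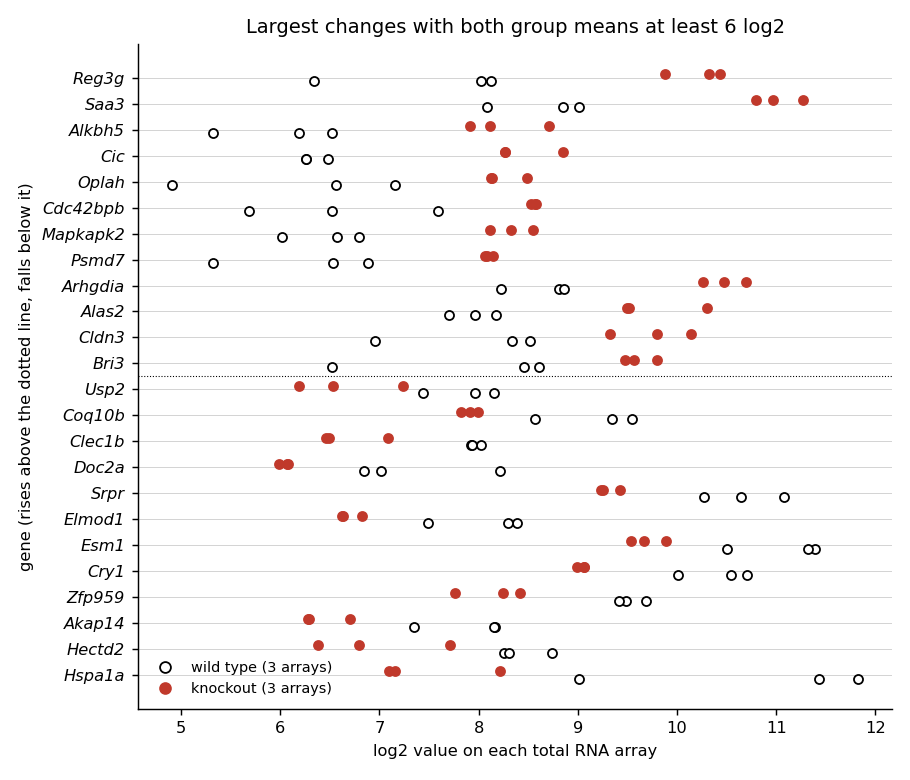
Log2 values on each of the 6 total RNA arrays for the 12 largest rises and 12 largest falls among called genes with both group means at least 6 log2, open circles for wild type and red for knockout. The genes were picked for lack of overlap, so in every row the 3 red points lie on one side of the 3 open ones. The lone low open circles of Reg3g, Oplah, Cldn3, Bri3 and Hspa1a are wild-type replicate 3.

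A separate set of large rises began from a wild-type mean under 5 log2, a dim level. C1qa, a chain of complement C1q that macrophages secrete, stood at 3.93, 3.93 and 3.49 log2 on the wild-type arrays and 7.29, 7.88 and 8.20 on the knockout arrays (4.01, SE 0.22, limma adjusted p = 2.1e-05). Pef1, a calcium-binding adaptor, stood at 3.47, 3.49 and 3.48 log2 on the wild-type arrays and 7.65, 7.66 and 7.12 on the knockout arrays (4.0, SE 0.16, limma adjusted p = 4.9e-06). Both were near 10 log2 or above on all 5 polysomal arrays, C1qa at 11.67 and 11.49 in wild type and 10.97, 11.37 and 11.23 in knockout, and Pef1 at 9.98 and 10.23 and 9.73, 10.18 and 9.98. The low wild-type total values of these messages thus do not show that the message was lacking. Ppp5c, a protein phosphatase, rose from 4.71, 5.22 and 4.71 to 7.56, 7.48 and 7.35 (2.58, SE 0.14, limma adjusted p = 1.8e-05), Chmp1a, a membrane-remodelling subunit, from 4.86, 4.14 and 3.46 to 6.82, 7.32 and 6.50 (2.73, SE 0.32, limma adjusted p = 0.00095), and Tpgs1, a subunit of a tubulin-modifying complex, from 2.85, 4.02 and 2.86 to 5.71, 5.77 and 4.70 (2.15, SE 0.35, limma adjusted p = 0.0033). Fam220a went from 3.76, 4.06 and 1.75 to 6.58, 7.43 and 5.13, and Lgals3bp, a secreted glycoprotein, from 4.43, 4.44 and 3.18 to 5.37, 7.20 and 6.53. Adamtsl2 (2.75), Pigs (2.87) and Zbtb5 (2.25) each had a wild-type array at 2.49 log2 or less. Without wild-type replicate 3 the rise of Adamtsl2 was 1.75. The call for Adamtsl2 was lost without knockout replicates 1 or 2 (limma adjusted p = 0.072), that for Pigs lost without knockout replicates 2 or 3 or wild-type replicate 2 (limma adjusted p = 0.058 to 0.07) and that for Zbtb5 lost without knockout replicates 1 or 2 or wild-type replicate 2 (limma adjusted p = 0.058 to 0.088). In all, 123 called rises had a wild-type mean under 5 log2, 77 of them at least 2-fold, and 41 called falls had a knockout mean under 5. Of these falls, Gm6377 went from 5.78, 5.0 and 6.79 to 3.40, 4.61 and 3.77, Pclo, a presynaptic scaffold, from 6.42, 6.47 and 5.46 to 5.04, 4.96 and 4.20, and Primpol, a primase-polymerase, from 5.57, 5.64 and 6.29 to 5.33, 4.06 and 4.09, the last lost without knockout replicates 2 or 3 (limma adjusted p = 0.053 to 0.065). The calls for Adamtsl2, Pigs, Zbtb5, Gm6377 and Primpol were lost in a fit of the 6 total arrays alone. Among the 6724 genes with both means at least 6 log2, 1165 were higher and 394 lower.

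Some genes of protein breakdown rose, and none of the tested subunits of the proteasome or genes of the lysosome fell. The proteasome degrades ubiquitin-tagged proteins, and 18 of its 41 tested subunits rose with none falling (43.9% called, against 23.2% of all genes; median 0.50). Psmd13, of the regulatory lid, stood at 8.55, 8.53 and 8.65 log2 on the wild-type arrays and 9.47, 9.72 and 9.59 on the knockout arrays (1.01, SE 0.11, limma adjusted p = 0.0007). Psme1 and Psme2, the interferon-inducible activator of the core, rose from 9.63, 9.78 and 9.51 to 10.32, 10.65 and 10.22 (0.75, SE 0.12, limma adjusted p = 0.0035) and from 9.59, 9.66 and 9.22 to 10.19, 10.79 and 10.48 (1.0, SE 0.16, limma adjusted p = 0.0036). Psmd7, another lid subunit, was the largest, from 6.53, 6.89 and 5.32 to 8.06, 8.15 and 8.09 (1.85, SE 0.33, limma adjusted p = 0.0051). The 4 were named among called subunits without overlap between genotypes, so their separation is not a result. These 4 calls held without each single array, but the count over the list did not stay the same. The count was 9 without knockout replicate 2, and 16 with 2 lower without wild-type replicate 3, where the median was 0.26. The medians were 0.23 within set A and 0.80 within set B.

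Of 50 tested lysosomal genes 15 rose and none fell (30.0% called; median 0.23). Ctsd, the aspartic protease cathepsin D, stood at 10.09, 10.37 and 9.63 log2 on the wild-type arrays and 11.32, 11.51 and 11.65 on the knockout arrays (1.46, SE 0.17, limma adjusted p = 0.00087), and Ctsz, a cysteine cathepsin, at 10.32, 10.34 and 10.15 log2 on the wild-type arrays and 10.92, 11.47 and 11.26 on the knockout arrays (0.95, SE 0.13, limma adjusted p = 0.0019). Atp6v1a, a subunit of the proton pump that acidifies lysosomes, rose from 9.46, 8.97 and 8.90 to 10.10, 10.66 and 10.24 (1.22, SE 0.18, limma adjusted p = 0.0024), and Smpd1, acid sphingomyelinase, from 10.49, 10.39 and 10.26 to 10.88, 11.06 and 11.04 (0.62, SE 0.10, limma adjusted p = 0.003). A further 21 members had a 95% interval within 0.5 log2 units of 0. Without wild-type replicate 1 or knockout replicate 2 or 3 the count was 8, and equal medians gave 9 higher and 1 lower.

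Endoplasmic reticulum genes were divided. Of 48 tested genes of translocation, glycosylation and folding 12 rose and 2 fell, with a median of 0.15 (29.2% called, against 23.2% of all genes). The median was 0.05 with equal medians. The protein disulfide isomerase P4hb rose from 12.67, 12.79 and 12.50 to 13.33, 13.53 and 13.53 (0.81, SE 0.10, limma adjusted p = 0.001), the signal recognition particle subunit Srp68 from 9.13, 9.26 and 9.23 to 9.78, 9.94 and 9.96 (0.68, SE 0.11, limma adjusted p = 0.0028), and the lectin chaperone Calr from 10.45, 10.45 and 10.61 to 10.95, 11.21 and 11.40 (0.68, SE 0.11, limma adjusted p = 0.0038). Srpr, which receives that particle, was the largest fall, as given above. Hspa5, the master chaperone of the unfolded protein response, was picked after its values were seen. It stood at 12.90, 12.93 and 12.38 log2 on the wild-type arrays and 12.47, 12.89 and 13.03 on the knockout arrays, overlapped between genotypes and was not called. Without knockout replicate 2 the risen numbered 7, and the fallen numbered 1 without wild-type replicate 2 or knockout replicate 1 or 2.

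Some mitochondrial genes rose by small amounts. Oxidative phosphorylation, which makes ATP on the inner membrane, had 28 of 64 tested members higher and none lower (43.8% called), with a median of 0.38 and no difference past 1.10. Atp5k and Atp5d, of the ATP synthase, were tight, at 11.43, 11.46 and 11.28 log2 on the wild-type arrays and 12.24, 12.32 and 12.20 on the knockout arrays (0.86, SE 0.08, limma adjusted p = 0.00037), and at 10.68, 10.78 and 10.54 log2 on the wild-type arrays and 11.70, 11.72 and 11.73 on the knockout arrays (1.05, SE 0.11, limma adjusted p = 0.00054). Ndufa3, of complex I, rose from 12.73, 12.77 and 12.52 to 13.25, 13.42 and 13.26 (0.64, SE 0.09, limma adjusted p = 0.0023). The count was 16, 13, 16 and 14 without knockout replicates 1, 2 and 3 and wild-type replicate 1, and 18 with equal medians, and no setting gave a fall. Of 64 tested proteins of the mitochondrial ribosome 17 rose and none fell (26.6% called, close to the 23.2% of all genes; median 0.26). Mrps7 stood at 6.47, 6.80 and 6.42 log2 on the wild-type arrays and 7.81, 7.92 and 7.81 on the knockout arrays (1.28, SE 0.14, limma adjusted p = 0.00077), and Mrps26 at 9.31, 9.38 and 9.33 log2 on the wild-type arrays and 10.08, 9.99 and 10.08 on the knockout arrays (0.71, SE 0.11, limma adjusted p = 0.0025). Mrpl34 rose from 3.41, 2.79 and 2.70 to 5.06, 5.04 and 5.06 (2.09, SE 0.18, limma adjusted p = 0.00024). The count was 8 without knockout replicate 2, and 11 without knockout replicate 1 or 3 or wild-type replicate 1. Without wild-type replicate 3, 2 members were lower, and with equal medians or quantile scaling 1 was.

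Genes of the translation machinery were called in both directions. Of 44 tested initiation and cap-binding factors 7 rose and 7 fell (31.8% called), with a median of 0.04, or 0.015 without wild-type replicate 3, and the fallen included Eif4e and both targeted genes. Eif5a, the factor that helps ribosomes through difficult stretches, stood at 13.66, 13.93 and 13.45 log2 on the wild-type arrays and 14.52, 14.83 and 14.78 on the knockout arrays (1.03, SE 0.13, limma adjusted p = 0.0014), and its paralogue Eif5a2 at 5.37, 5.02 and 4.87 log2 on the wild-type arrays and 3.54, 3.84 and 3.81 on the knockout arrays (-1.36, SE 0.15, limma adjusted p = 0.00071). Both levels of Eif5a2 were dim. Eif6, which keeps the ribosomal subunits apart, rose from 9.83, 10.04 and 9.83 to 10.56, 10.63 and 10.48 (0.66, SE 0.11, limma adjusted p = 0.0033). The fallen numbered 4 without wild-type replicate 1 or knockout replicate 1 or 2. Of 20 tested cytosolic ribosomal proteins, out of 79 listed, 5 rose and 1 fell (30% called). Rps15 stood at 10.77, 10.61 and 10.41 log2 on the wild-type arrays and 11.83, 12.10 and 11.89 on the knockout arrays (1.34, SE 0.14, limma adjusted p = 0.0005), Rplp2 at 14.15, 14.13 and 13.95 log2 on the wild-type arrays and 14.94, 14.96 and 14.84 on the knockout arrays (0.83, SE 0.10, limma adjusted p = 0.00096) and Rps9 at 11.74, 11.70 and 11.26 log2 on the wild-type arrays and 12.44, 12.80 and 12.50 on the knockout arrays (1.01, SE 0.14, limma adjusted p = 0.002). Ribosomal protein genes have many near-identical pseudogenes, so their probe sets may not be specific. The 1 fall was lost without knockout replicate 1 or 2 or wild-type replicate 1. Of 22 tested genes of mTOR signalling 2 rose (9.09% called). Pdpk1, the kinase that activates Akt, rose from 9.79, 9.77 and 9.17 to 10.72, 11.07 and 10.87 (1.31, SE 0.18, limma adjusted p = 0.0019). Pik3r2 (0.32, SE 0.09, limma adjusted p = 0.035) was lost without knockout replicates 1, 2 or 3, wild-type replicates 1 or 3 or knockout polysomal replicate 2 (limma adjusted p = 0.051 to 0.12). The list had 4 higher without knockout polysomal replicate 3, and 1 lower without wild-type replicate 3. Textbook eIF4E-sensitive messages numbered 17, of which 2 rose and 1 fell (17.6% called). Ccnd3, a G1 cyclin, stood at 7.67, 7.75 and 7.11 log2 on the wild-type arrays and 9.02, 8.96 and 9.22 on the knockout arrays (1.56, SE 0.16, limma adjusted p = 0.00055). The call for Tgfb1 (1.08, SE 0.29, limma adjusted p = 0.026) was lost without knockout replicates 2 or 3 or wild-type replicates 1 or 2 (limma adjusted p = 0.062 to 0.098). That for the survival factor Mcl1 (-0.32, SE 0.10, limma adjusted p = 0.042) was lost without knockout replicates 2 or 3, wild-type replicates 1, 2 or 3, knockout polysomal replicate 2 or wild-type polysomal replicates 1 or 2 (limma adjusted p = 0.051 to 0.14).

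In the integrated stress response, which couples amino acid shortage to transcription, 5 of 24 tested genes rose and none fell (20.8% called; median 0.24). Atf5, a transcription factor of that pathway, stood at 6.84, 6.98 and 6.53 log2 on the wild-type arrays and 8.40, 8.63 and 8.44 on the knockout arrays (1.71, SE 0.12, limma adjusted p = 0.0001). Psph, the last step of serine synthesis, stood at 8.10, 8.18 and 8.21 log2 on the wild-type arrays and 8.86, 9.01 and 9.01 on the knockout arrays (0.80, SE 0.10, limma adjusted p = 0.001). Aars, alanyl-tRNA synthetase, rose from 7.37, 7.51 and 7.01 to 8.17, 8.52 and 8.19 (1.0, SE 0.17, limma adjusted p = 0.0039), and the call for Sars (0.29, SE 0.08, limma adjusted p = 0.033) was lost without knockout replicates 1, 2 or 3 or wild-type replicates 1 or 3 (limma adjusted p = 0.06 to 0.099). The count was 3 without wild-type replicate 1 or any 1 knockout array. A member fell without knockout replicate 1, wild-type replicate 3 or knockout polysomal replicate 3, and under equal medians or quantile scaling. Of 24 tested p53 targets and cell cycle inhibitors 6 rose and 3 fell (37.5% called; median 0.15). Phlda3, which restrains Akt, stood at 5.12, 3.84 and 4.65 log2 on the wild-type arrays and 6.69, 6.70 and 6.61 on the knockout arrays (2.13, SE 0.27, limma adjusted p = 0.0012). Bax, a pore former of apoptosis, stood at 5.76, 6.58 and 6.15 log2 on the wild-type arrays and 7.54, 7.44 and 7.55 on the knockout arrays (1.35, SE 0.21, limma adjusted p = 0.0027). Ei24 rose (0.43, SE 0.09, limma adjusted p = 0.009), and Perp, an adhesion protein, fell from 10.78, 11.23 and 10.98 to 10.38, 10.45 and 10.57 (-0.53, SE 0.12, limma adjusted p = 0.012). The fallen numbered 1 without knockout replicate 1 or 2 or knockout polysomal replicate 3.

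Genes of DNA replication and mitosis rose in 11 of 28 tested cases and fell in none (39.3% called; median 0.53). The replicative helicase MCM gave the clearest values. Mcm5 stood at 8.42, 8.42 and 8.78 log2 on the wild-type arrays and 9.53, 9.75 and 9.63 on the knockout arrays (1.10, SE 0.13, limma adjusted p = 0.0009), Mcm6 at 9.85, 9.68 and 10.02 log2 on the wild-type arrays and 10.75, 10.96 and 11.04 on the knockout arrays (1.06, SE 0.14, limma adjusted p = 0.0013) and Mcm2 at 7.04, 6.67 and 7.10 log2 on the wild-type arrays and 8.01, 8.34 and 8.23 on the knockout arrays (1.26, SE 0.17, limma adjusted p = 0.0018). They were named among called genes without overlap between genotypes. The count was 10 to 15 with any array left out and 10 with equal medians. A further 23 of the 57 listed genes were too dim to test, so the list speaks for its more abundant members.

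Matrix and vessel genes were called higher in part. Of 53 tested genes of the extracellular matrix 17 rose and 2 fell (35.8% called, against 23.2% of all genes; median 0.42), and 34 were not called. Loxl1, which cross-links elastin, stood at 9.69, 9.69 and 9.70 log2 on the wild-type arrays and 10.74, 10.75 and 10.89 on the knockout arrays (1.10, SE 0.12, limma adjusted p = 0.00071). Col4a2, a basement membrane collagen, stood at 11.20, 11.24 and 11.12 log2 on the wild-type arrays and 12.18, 12.16 and 12.21 on the knockout arrays (1.0, SE 0.12, limma adjusted p = 0.001), and Mfap4 and Mfap5, of the elastic microfibrils, rose from 10.77, 10.43 and 10.65 to 12.04, 12.15 and 12.02 (1.45, SE 0.19, limma adjusted p = 0.0016) and from 5.41, 5.21 and 5.50 to 6.50, 6.71 and 6.65 (1.24, SE 0.17, limma adjusted p = 0.0019). Col3a1, a fibrillar collagen, rose from 13.12, 12.62 and 13.07 to 13.87, 14.08 and 14.08 (1.08, SE 0.17, limma adjusted p = 0.0032). The falls, Adamts1 and Fmod, named after their values were seen, were lost without knockout replicate 1 or 2, and 1 remained without knockout replicate 3 or wild-type replicate 1. Of 20 tested fibroblast markers, which share several of these genes, 5 rose (30% called in all) and 1 fell, Ces1d, a carboxylesterase (14.32, 14.32 and 14.11 to 13.82, 13.80 and 13.91; -0.41, SE 0.09, limma adjusted p = 0.01).

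Of 22 tested endothelial markers 13 rose and none fell (59.1% called, against 23.2% of all genes; median 0.50), and the medians were 0.58 and 0.59 within sets A and B. Egfl7, secreted by endothelium, stood at 10.19, 10.45 and 10.26 log2 on the wild-type arrays and 11.24, 11.42 and 11.38 on the knockout arrays (1.05, SE 0.09, limma adjusted p = 0.00024). Tie1, an endothelial receptor kinase, stood at 6.29, 5.95 and 6.38 log2 on the wild-type arrays and 7.54, 7.74 and 7.67 on the knockout arrays (1.44, SE 0.14, limma adjusted p = 0.00036), and Cldn5, a tight junction protein, at 12.19, 12.52 and 12.48 log2 on the wild-type arrays and 13.33, 13.32 and 13.42 on the knockout arrays (0.96, SE 0.10, limma adjusted p = 0.0005). Rasip1, a regulator of vessel lumens, rose from 4.22, 3.85 and 3.85 to 5.57, 5.93 and 5.66 (1.75, SE 0.20, limma adjusted p = 0.00086). The list did not move as a block, since 4 uncalled members, Cdh5 among them, had intervals within 0.5 log2 units of 0, and Esm1, an endothelial product outside the list, fell. The count was 10 to 14 with any array left out. Of the growth factor list 7 of 30 rose and 1, Esm1, fell (26.7% called; median 0.12). Kdr, the main VEGF receptor, rose from 11.15, 11.01 and 11.49 to 11.72, 12.23 and 12.03 (0.78, SE 0.15, limma adjusted p = 0.0067), Pdgfb from 4.56, 4.58 and 4.55 to 5.62, 5.96 and 5.62 (1.17, SE 0.11, limma adjusted p = 0.00033) and Fgf18 from 4.56, 4.54 and 4.57 to 6.63, 6.41 and 5.95 (1.78, SE 0.20, limma adjusted p = 0.00081), Pdgfb and Fgf18 from dim wild-type levels. The risen numbered 4 without knockout replicate 2, and the fallen 2 without knockout replicate 1, wild-type replicate 3 or knockout polysomal replicate 3, and 3 under both scalings.

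Smooth muscle markers rose in 4 of 7 tested cases (57.1% called; median 0.67). Acta2, smooth muscle actin, stood at 11.19, 11.21 and 11.30 log2 on the wild-type arrays and 11.94, 11.88 and 11.91 on the knockout arrays (0.67, SE 0.09, limma adjusted p = 0.0018), and Tagln at 7.87, 8.40 and 7.53 log2 on the wild-type arrays and 9.28, 9.43 and 9.08 on the knockout arrays (1.33, SE 0.22, limma adjusted p = 0.0036). Des rose (0.76, SE 0.11, limma adjusted p = 0.0019), and the call for Mylk (0.57, SE 0.15, limma adjusted p = 0.022) was lost without knockout replicates 1 or 2 or wild-type replicate 1 (limma adjusted p = 0.052 to 0.076). Of 11 tested heart muscle markers 3 rose and 8 were not called (27.3% called, near the 23.2% of all genes; median 0.64), and their mean level ran from 7.34 to 8.01 on the wild-type and from 7.96 to 8.65 on the knockout arrays. Myl4, an atrial myosin light chain, stood at 7.24, 7.71 and 7.07 log2 on the wild-type arrays and 9.04, 8.26 and 8.59 on the knockout arrays (1.29, SE 0.28, limma adjusted p = 0.011), and Tnnc1 at 7.02, 7.63 and 7.31 log2 on the wild-type arrays and 8.57, 8.39 and 8.28 on the knockout arrays (1.09, SE 0.24, limma adjusted p = 0.011). Nppa, an atrial hormone picked after its values were seen, ran from 4.60 to 6.78 in wild type and from 5.83 to 8.63 in knockout, overlapped and was not called. None of the 13 listed skeletal muscle markers was bright enough to test. The part of heart tissue in these rises was not tested.

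A minority of the alveolar epithelial markers rose. Of 16 tested type 2 cell markers 7 rose and none fell (43.8% called, against 23.2% of all genes; median 0.32). Napsa, a protease that processes surfactant proteins, stood at 11.98, 12.24 and 11.79 log2 on the wild-type arrays and 12.89, 13.13 and 13.01 on the knockout arrays (1.01, SE 0.12, limma adjusted p = 0.001), and Sftpd, surfactant protein D, at 14.35, 14.49 and 14.19 log2 on the wild-type arrays and 14.73, 14.74 and 14.77 on the knockout arrays (0.41, SE 0.09, limma adjusted p = 0.015). Sftpc, picked after its values were seen, stood at 15.59, 15.82 and 13.89 log2 on the wild-type arrays and 16.13, 16.13 and 16.12 on the knockout arrays. Its knockout arrays were within 0.01 log2 units of each other, wild-type replicate 3 was far below the rest, and it was not called (limma adjusted p = 0.092). The type 2 count was 2 without knockout replicate 2, 4 without knockout replicate 3 or wild-type replicate 1, and 4 to 5 under other scalings, and the call for Sftpd was lost without knockout replicate 2 (limma adjusted p = 0.05035). Of 10 tested type 1 cell markers 3 rose and none fell (30% called). The water channel Aqp5 stood at 10.46, 10.52 and 10.47 log2 on the wild-type arrays and 11.22, 11.39 and 11.21 on the knockout arrays (0.79, SE 0.09, limma adjusted p = 0.00096), and the receptor Ager at 14.95, 14.91 and 14.94 log2 on the wild-type arrays and 15.33, 15.41 and 15.30 on the knockout arrays (0.41, SE 0.07, limma adjusted p = 0.0045). Gprc5a, an orphan receptor, rose from 8.22, 8.21 and 7.50 to 8.96, 9.13 and 9.10 (1.09, SE 0.19, limma adjusted p = 0.0043). A type 1 marker was lower without wild-type replicate 3 and under both scalings.

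The airway epithelium was split. Of 8 tested club cell markers 3 rose (37.5% called), namely Scgb3a1, Hp and Cbr2. Cbr2, a carbonyl reductase abundant in these cells, stood at 10.55, 10.73 and 9.89 log2 on the wild-type arrays and 12.11, 12.21 and 11.89 on the knockout arrays (1.68, SE 0.19, limma adjusted p = 0.00071). Scgb1a1, the defining marker of the same cells, had a narrow interval around 0 as given above, but at the top of the signal range. A member was lower without wild-type replicate 3. Of 19 tested ciliated cell markers none rose and 6 fell (31.6% called, against 5.97% of all genes lower; median -0.39). Akap14, an anchor of kinases in cilia, stood at 8.17, 8.16 and 7.34 log2 on the wild-type arrays and 6.29, 6.28 and 6.70 on the knockout arrays (-1.47, SE 0.26, limma adjusted p = 0.0049). Cdhr3, a cadherin of ciliated cells, stood at 7.74, 7.55 and 7.32 log2 on the wild-type arrays and 6.83, 6.59 and 6.83 on the knockout arrays (-0.79, SE 0.11, limma adjusted p = 0.0023). Iqub fell from 5.94, 6.15 and 4.80 to 4.02, 4.03 and 4.63 (-1.40, SE 0.32, limma adjusted p = 0.013), and Ccdc39, an assembly factor of ciliary motors, from 5.57, 5.23 and 5.66 to 4.95, 4.76 and 5.11 (-0.55, SE 0.14, limma adjusted p = 0.023). The call for Iqub was lost without knockout replicate 2 or wild-type replicate 1 (limma adjusted p = 0.052 to 0.055), and that for Ccdc39 lost without knockout replicates 1 or 2 or wild-type replicates 1 or 3 (limma adjusted p = 0.053 to 0.093). Foxj1, the master regulator of cilia, was picked after its values were seen. It stood at 6.62, 6.56 and 6.47 log2 on the wild-type arrays and 7.05, 7.01 and 6.57 on the knockout arrays, overlapped and was not called. Wild-type replicate 3 was the lowest wild-type array for Akap14, Cdhr3 and Iqub, and without it 11 markers were lower. There were 2 without wild-type replicate 1, where 1 marker was higher, 2 without knockout replicate 2 and 3 without knockout replicate 1. Both scalings gave 8. The 6 total arrays alone gave 2 lower, and a block by set letter within each kind of RNA gave 3 lower and 1 higher. The median was -0.63 within set A and -0.08 within set B.

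**Figure D3:**
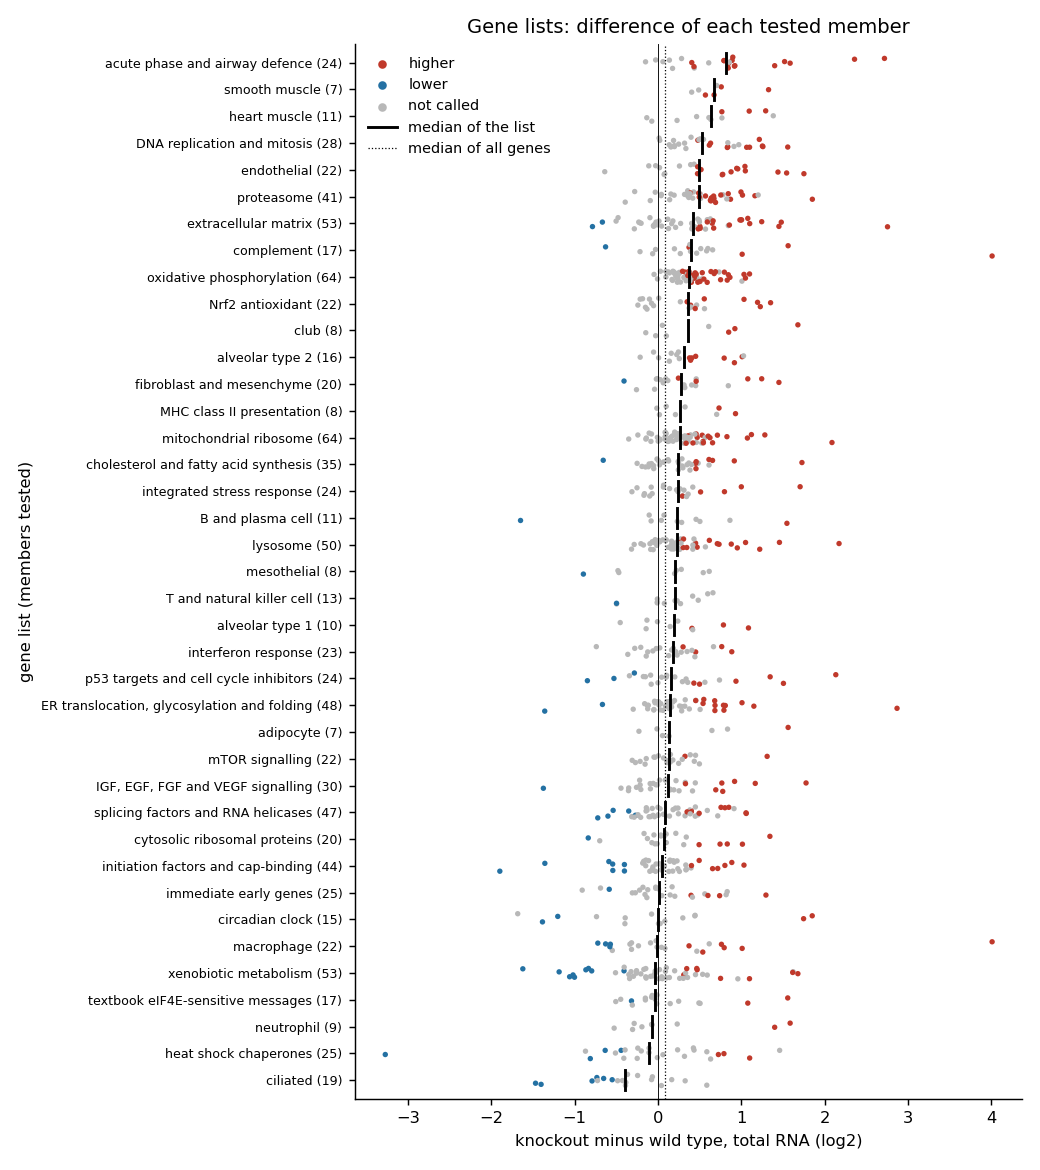
Knockout minus wild type in total RNA (log2) for each tested member of every list with at least 7 tested members, red where called higher, blue where called lower and grey otherwise. Black ticks are list medians, from 0.82 for acute phase and airway defence to -0.39 for ciliated cells, and the dotted line is the median of all genes, 0.09.

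Macrophage markers were called in both directions. Of 22 tested, 6 rose and 4 fell (45.5% called; median -0.02, or -0.11 without wild-type replicate 3). C1qa is described above, and Car4, a carbonic anhydrase that is also in alveolar endothelium, stood at 9.23, 8.86 and 9.09 log2 on the wild-type arrays and 9.61, 9.97 and 9.89 on the knockout arrays (0.76, SE 0.14, limma adjusted p = 0.0059). Lyz2, the lysozyme of macrophages and type 2 cells, stood at 15.11, 15.17 and 14.43 log2 on the wild-type arrays and 15.61, 15.82 and 15.66 on the knockout arrays (0.79, SE 0.18, limma adjusted p = 0.011), a call lost without knockout replicate 2 (limma adjusted p = 0.051). Siglecf, a lectin that marks alveolar macrophages, fell from 10.92, 10.65 and 10.48 to 10.03, 10.08 and 10.19 (-0.58, SE 0.12, limma adjusted p = 0.011), and the ribonuclease Ear2 from 12.60, 12.56 and 12.81 to 11.97, 12.13 and 12.16 (-0.57, SE 0.10, limma adjusted p = 0.0055). The 3 chains of C1q did not share a level of change. C1qc rose from 4.58, 4.58 and 4.60 to 5.94, 5.86 and 4.99 (1.01, SE 0.30, limma adjusted p = 0.037), a call lost without knockout replicates 1 or 2, wild-type replicates 1, 2 or 3 or knockout polysomal replicates 2 or 3 (limma adjusted p = 0.052 to 0.13). C1qb, named after its values were seen, was well above the floor at 10.84, 10.96 and 10.82 log2 on the wild-type arrays and 11.25, 11.17 and 11.32 on the knockout arrays (0.37, SE 0.12, limma adjusted p = 0.04999). The risen macrophage markers numbered 3 without knockout replicate 2, and the fallen 2 without knockout or wild-type replicate 1. Of 17 tested complement genes 4 rose and 1 fell (29.4% called; median 0.39). Cfd, factor D, rose from 8.60, 8.99 and 6.92 to 9.84, 9.73 and 9.63 (1.56, or 0.94 without wild-type replicate 3; SE 0.43, limma adjusted p = 0.028), a call lost without knockout replicates 1, 2 or 3 (limma adjusted p = 0.06 to 0.08). The 1 fall in the list was lost without knockout or wild-type replicate 1 or 2. The risen complement genes numbered 2 without knockout replicate 1 or knockout polysomal replicate 3 and 1 without knockout replicate 2.

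Other immune lists had few called members. Of 8 tested genes of MHC class II presentation 2 rose (25% called). H2-Ab1 stood at 7.59, 7.59 and 7.60 log2 on the wild-type arrays and 8.34, 8.70 and 8.54 on the knockout arrays (0.93, SE 0.14, limma adjusted p = 0.0026), and Cd74, the invariant chain, at 12.13, 12.09 and 11.70 log2 on the wild-type arrays and 12.51, 12.92 and 12.69 on the knockout arrays (0.73, SE 0.15, limma adjusted p = 0.009). Of 23 tested interferon response genes 4 rose (17.4% called; median 0.18). Ifi27 rose from 11, 11.04 and 10.55 to 11.58, 11.71 and 11.60 (0.77, SE 0.13, limma adjusted p = 0.0039), and Psmb9, the immunoproteasome subunit, from 8.68, 8.42 and 8.12 to 9.11, 9.38 and 9.40 (0.89, SE 0.19, limma adjusted p = 0.011). The count was 2 without knockout replicate 2, and without wild-type replicate 2 a member was lower. Of 13 tested markers of T and natural killer cells 1 fell (7.69% called), Il7r, a cytokine receptor (6.87, 7.23 and 6.97 to 6.48, 6.53 and 6.57; -0.50, SE 0.11, limma adjusted p = 0.0099). Of 11 B and plasma cell markers 1 rose and 1 fell (18.2% called). Cd79b, of the B cell receptor, rose from 7.23, 7.21 and 7.59 to 8.46, 9.62 and 8.60 (1.55, SE 0.38, limma adjusted p = 0.018), a call lost without knockout replicate 2 or wild-type replicate 1 (limma adjusted p = 0.061 to 0.066). Jchain, the joining chain of antibodies, was the fall, named after its values were seen. It stood at 11.41, 11.48 and 9.31 log2 on the wild-type arrays and 8.80, 9.39 and 9.06 on the knockout arrays and overlapped between genotypes, and no B cell list member was called lower without any 1 of the 10 arrays other than wild-type replicate 3.

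Some blood cell markers were called. Alas2, the first enzyme of haem synthesis in red cell precursors, stood at 7.71, 7.97 and 8.17 log2 on the wild-type arrays and 9.52, 10.30 and 9.50 on the knockout arrays (1.82, SE 0.30, limma adjusted p = 0.0036). Bpgm, another red cell enzyme, stood at 8.32, 7.95 and 8.41 log2 on the wild-type arrays and 9.46, 9.81 and 8.96 on the knockout arrays (1.18, SE 0.33, limma adjusted p = 0.031), a call lost without knockout replicates 1 or 2 or wild-type replicates 1 or 2 (limma adjusted p = 0.073 to 0.12). These were 2 of 6 tested red cell markers (33.3% called), with a median of 1.01 and a mean level per array of 8.02 to 8.72 in wild type and 8.85 to 9.75 in knockout. The risen numbered 4 without wild-type replicate 3 or knockout polysomal replicate 1, and 1 without knockout or wild-type replicate 1 or 2. Slc4a1, the anion exchanger of the red cell membrane, picked after its values were seen, stood at 4.17, 4.17 and 5.36 log2 on the wild-type arrays and 4.21, 5.24 and 4.28 on the knockout arrays and was not called. The part of blood content in these differences was not tested. Of 3 tested platelet markers 2 fell, Clec1b and Ppbp. Ppbp, named after its values were seen, overlapped between genotypes, and 1 of the falls was left without any 1 of 9 arrays (all but knockout and wild-type replicate 2). Pf4, a platelet chemokine picked after its values were seen, stood at 10.84, 10.88 and 10.89 log2 on the wild-type arrays and 10.81, 10.85 and 10.79 on the knockout arrays and was not called (95% interval -0.35 to 0.24). Hdc, histidine decarboxylase of mast cells, rose from 7.99, 8.34 and 7.94 to 8.90, 9.07 and 9.10 (0.93, SE 0.17, limma adjusted p = 0.0058), the 1 of 3 mast cell markers called. Wt1, the mesothelial transcription factor, fell from 6.46, 6.81 and 6.87 to 5.72, 5.94 and 5.80 (-0.89, SE 0.16, limma adjusted p = 0.0048), the 1 of 8 mesothelial markers called. Without wild-type replicate 3 there were 2 lower, and without knockout replicate 1 or wild-type replicate 2 there was 1 higher. The 1 of 7 adipocyte markers called was Cfd.

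Metabolic lists were mixed. Of 53 tested genes of xenobiotic metabolism 8 rose and 9 fell (32.1% called, against 23.2% of all genes; median -0.03, or -0.23 without wild-type replicate 3). The carboxylesterase Ces1e stood at 8.46, 8.28 and 8.43 log2 on the wild-type arrays and 7.39, 7.38 and 7.40 on the knockout arrays (-1.0, SE 0.08, limma adjusted p = 0.00018), and its knockout values lay within 0.02 log2 units of each other. Gsta2, a glutathione transferase, fell from 11.48, 11.45 and 11.02 to 10.55, 10.43 and 10.59 (-0.79, SE 0.13, limma adjusted p = 0.0036), and Gstt3, of another class, rose from 7.13, 7.05 and 6.64 to 7.74, 8.36 and 8.02 (1.10, SE 0.19, limma adjusted p = 0.0047). Carboxylesterase genes are close copies of each other, so probe sets may read more than one. Without wild-type replicate 3 the fallen numbered 18, and they numbered 5 without wild-type replicate 1 or knockout replicate 1 or 2. The risen numbered 4 without wild-type replicate 1 or knockout replicate 2, and 5 without knockout replicate 3.

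Of 22 tested antioxidant genes under the control of Nrf2 8 rose and none fell (36.4% called, against 23.2% of all genes; median 0.36, or 0.21 without wild-type replicate 3). Gclm and Gclc, the subunits of the enzyme that commits cysteine to glutathione, stood at 8.12, 8.27 and 7.50 log2 on the wild-type arrays and 9.11, 9.21 and 9.15 on the knockout arrays (1.19, SE 0.17, limma adjusted p = 0.0022), and at 10.27, 10.15 and 9.88 log2 on the wild-type arrays and 10.71, 11.47 and 11.23 on the knockout arrays (1.03, SE 0.21, limma adjusted p = 0.0093). Gpx3, the secreted glutathione peroxidase, rose from 11.81, 12.23 and 11.37 to 13.24, 13.08 and 13.14 (1.35, SE 0.18, limma adjusted p = 0.0017), and Fth1, the ferritin heavy chain, from 11.92, 12.10 and 11.22 to 12.92, 13.06 and 12.94 (1.23, SE 0.20, limma adjusted p = 0.0037). Sod1, picked after its values were seen, stood at 15.57, 15.66 and 15.40 log2 on the wild-type arrays and 15.52, 15.51 and 15.63 on the knockout arrays and was not called. The count was 4 without knockout replicate 2, and without wild-type replicate 3 it was 7 with 1 lower. Of 35 tested genes of cholesterol and fatty acid synthesis 7 rose and 1 fell (22.9% called, close to the 23.2% of all genes; median 0.24, or 0.13 without wild-type replicate 3). Elovl1, a fatty acid elongase, stood at 13.78, 13.89 and 13.91 log2 on the wild-type arrays and 14.30, 14.57 and 14.68 on the knockout arrays (0.65, SE 0.11, limma adjusted p = 0.0038). Fads1, a desaturase, rose (0.61, SE 0.12, limma adjusted p = 0.0067), as did Plin2, a coat protein of lipid droplets (0.46, SE 0.10, limma adjusted p = 0.011). The risen numbered 4 without knockout replicate 2, and the 1 fall was lost without any knockout array or wild-type replicate 2 or 3.

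Of 25 tested immediate early genes 4 rose and 1 fell (20% called; median 0.01, or 0.02 without wild-type replicate 3). Ier2 stood at 7.78, 8.26 and 7.83 log2 on the wild-type arrays and 9.0, 9.61 and 9.14 on the knockout arrays (1.30, SE 0.22, limma adjusted p = 0.0037) and Gadd45g at 8.0, 7.95 and 8.01 log2 on the wild-type arrays and 8.87, 8.54 and 8.77 on the knockout arrays (0.74, SE 0.12, limma adjusted p = 0.0034). Zfp36, which destabilises cytokine messages, rose from 9.01, 8.82 and 9.10 to 9.57, 9.56 and 9.60 (0.60, SE 0.11, limma adjusted p = 0.0059), and the call for Gadd45b (0.40, SE 0.11, limma adjusted p = 0.035) was lost without knockout replicates 1 or 2 or wild-type replicates 1 or 2 (limma adjusted p = 0.078 to 0.13). The 1 fall, Ccn2, was named after its values were seen, and it was lost without any 1 of 7 arrays (all but knockout replicate 1, wild-type replicate 3 and knockout polysomal replicates 1 and 3). Of 47 tested splicing factors and RNA helicases 9 rose and 5 fell (29.8% called; median 0.08). The subunits Sf3b5 and Sf3b3 of the branch site complex stood at 8.15, 8.21 and 8.05 log2 on the wild-type arrays and 9.08, 9.38 and 9.11 on the knockout arrays (1.06, SE 0.14, limma adjusted p = 0.0014), and at 8.38, 8.40 and 8.38 log2 on the wild-type arrays and 9.25, 9.37 and 8.95 on the knockout arrays (0.80, SE 0.11, limma adjusted p = 0.002). Snrpd3, of the core ring of spliceosomal particles, rose from 9.85, 9.68 and 9.19 to 10.44, 10.88 and 10.58 (1.06, SE 0.18, limma adjusted p = 0.0037). Rbm39, a splicing coactivator, fell from 7.85, 7.91 and 7.83 to 7.39, 7.21 and 7.37 (-0.54, SE 0.10, limma adjusted p = 0.0052). Without knockout replicate 2 there were 5 higher and 3 lower, and equal medians gave 8 and 8.

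Genomic length separated the called genes. The median length, from start to end of the gene on GRCm38.p6, was 14 kb for genes higher in knockout, 30.5 kb for genes lower and 24.0 kb for those not called. Genes were split by length into 5 groups of 1617. In the shortest group, up to 8.07 kb, 26.5% were higher and 2.66% lower, and the median difference was 0.24. The shares of higher genes in the next 4 groups were 21.8%, 16%, 12.5% and 9.4%, and those of lower genes 4.82%, 7.17%, 7.85% and 7.36%, while the median difference went down to 0.01 in the longest. The direction held within each set of replicate letters (0.19 to -0.01 in set A, 0.28 to 0.02 in set B). In the shortest group all 3 wild-type arrays lay below and all 3 knockout arrays above their common mean. Relative to the mean of the 6 arrays, it had medians of -0.14, -0.07 and -0.14 on the wild-type and 0.09, 0.17 and 0.11 on the knockout arrays. The longest group had no such order, with 0.013, 0.006 and -0.027 on the wild-type and -0.003, 0.024 and -0.013 on the knockout arrays. In polysomal RNA the median differences of the 5 groups ran from -0.03 to 0.03. The shares called showed no such order with level, at 14.5% to 19.6% higher and 5.13% to 6.93% lower across 5 groups of rising mean level. The median difference did rise with level within set B, from 0.02 to 0.18, while in set A it lay between 0.04 and 0.09 without order. Relative to the mean of the 6 arrays, wild-type replicate 3 went from -0.01 in the dimmest group to -0.13 in the brightest.

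**Figure D4:**
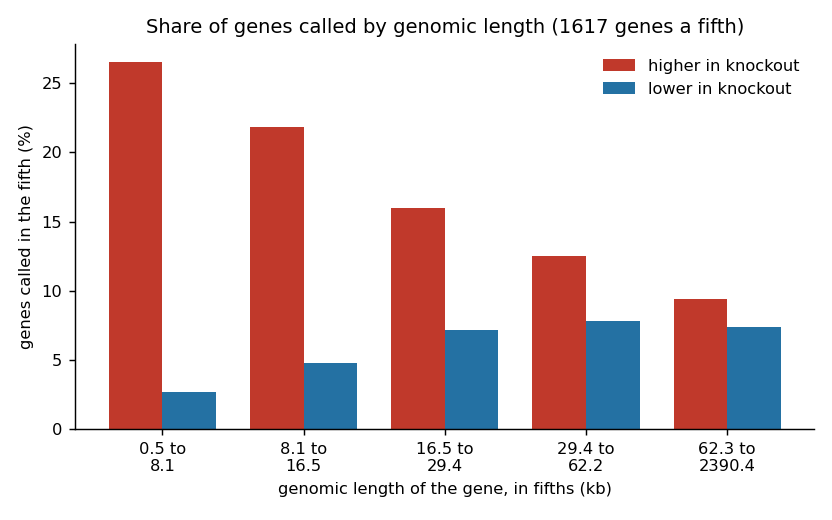
Share of genes called higher (red) and lower (blue) in knockout total RNA, in percent of the 1617 genes of each of 5 groups of genomic length, in kb. The red bars step down from 26.5% in the shortest group to 9.4% in the longest, and the blue bars step up from 2.66% to 7.85% in the next to longest.

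Genes beside the targeted genes were called about as often as others. Of the 40 tested genes nearest to Eif4ebp1 on chromosome 8, 7 were called (17.5%, against 24.9% of the other genes of that chromosome). Around Eif4ebp2 on chromosome 10, 11 of 40 were called (27.5%, against 22.4%). Neither share was far from the 23.2% of all genes.

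The polysomal arrays share no array with the total RNA comparison, and each comparison has its own wild-type group. In polysomal RNA 8.36% of all genes were called higher in knockout and 6.77% lower. Of the genes higher in knockout total RNA, 99 (7.11%) were also called higher in polysomal RNA and 53 (3.8%) were called lower. Of those lower in total RNA, 71 (14.7%) were also lower and 85 (17.6%) higher on polysomes. Over the 8085 genes the differences correlated at Pearson r = 0.087 and Spearman rho = 0.0085, given as a description across genes. Several of the largest changes pointed the same way in both. Saa3 differed by 2.36 in total and 2.07 in polysomal RNA, Reg3g by 2.72 and 1.51 (not called in polysomal RNA), and Alas2 by 1.82 and 1.77. Hspa1a differed by -3.27 and -4.64, Cry1 by -1.39 and -1.40, Usp2 by -1.20 and -2.38, and Srpr by -1.36 and -3.23. In contrast, Arhgdia differed by 1.84 and 0.02, Cic by 2.13 and -0.19, and Psmd13 by 1.01 and -0.06. List medians differed as well. That of acute phase and airway defence was 0.82 in total and 0.03 in polysomal RNA. The endothelial median was 0.50 and -0.13, and that of the proteasome 0.50 and -0.06. Those of DNA replication and mitosis (0.53 and 0.65) and of ciliated cells (-0.39 and -0.85) kept their direction. Wild-type lung had more signal in polysomal than in total RNA for the genes called higher, by a median of 1.64 log2 units, and less for those called lower, by a median of 0.99 (all genes 0.22). That quantity uses the same wild-type total arrays as the comparison itself, and is therefore no independent support for it. The difference between the genotype effects, tested as an interaction in limma, was called for 1803 of 8085 genes (22.3%).

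**Figure D5:**
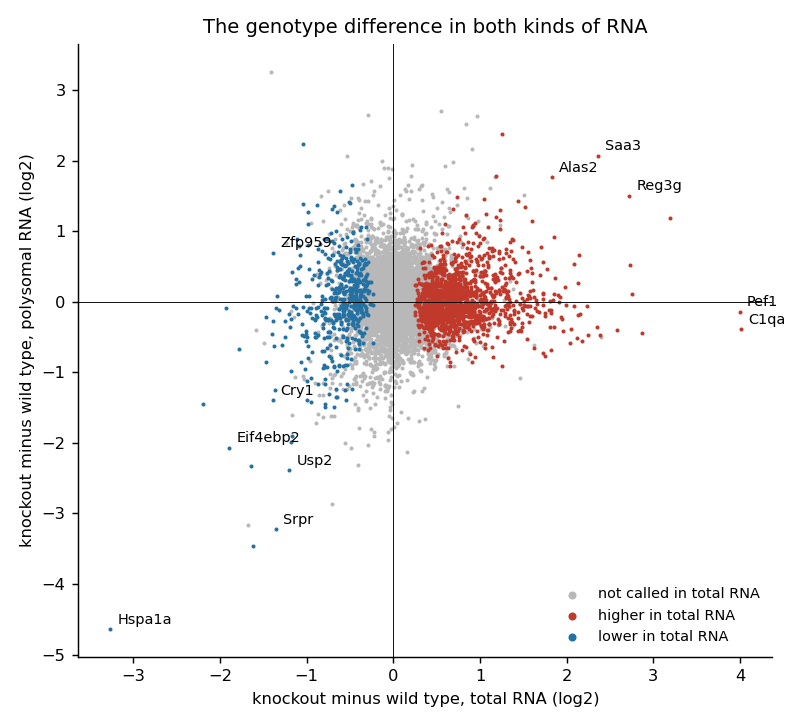
Knockout minus wild type in total RNA (x axis) and in polysomal RNA (y axis), both log2, for the 8085 genes tested, coloured by the call in total RNA. Saa3, Reg3g and Alas2 lie high on both axes and Hspa1a, Srpr and Usp2 low on both, while Pef1 and C1qa lie far right and close to 0 on the y axis.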

How the data were processed

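Lung RNA was measured on 11 one-colour arrays, 6 of total and 5 of heavy polysomal RNA. The authors deposited 1 table of log2 values per probe set, made with GCRMA per the submitters' processing notes, with its version not given in the sources used here. GCRMA models background by probe sequence and normalizes the arrays together, so values near the floor are compressed. No further normalization was applied. Probe sets were named through RefSeq accessions on GRCm38.p6. Of 26180 probe sets, 15228 matched 1 gene, 10952 matched none and are unnamed here, and 7538 repeat another row exactly. Those with at least 5 log2 on at least 2 of 11 arrays were tested.

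A mean per group was fitted to all 11 arrays with limma 3.58.1 in R 4.3.3 (7 residual degrees of freedom), with empirical Bayes moderation and Benjamini-Hochberg adjustment over 13802 probe sets at 0.05. A gene was read from its tested probe set with the highest mean. For 20 of the 103 genes with more than 1 distinct tested probe set, the sets disagree in sign. "Called" means an adjusted p under 0.05, and "rose" and "fell" are used of called genes. Summaries and plots used Python 3.11.15, pandas 2.3.3, numpy 2.4.6 and matplotlib 3.10.9. The fit was tested on simulated data.

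The comparison and the gene lists were chosen with earlier results of these data known. Genes are named by rule. These are the 4E-BP and eIF4E genes, the 12 largest non-overlapping called changes each way with both means at least 6 log2, the 10 largest rises from under 5 and the 6 largest falls to under 5. Added to them are up to 4 called members of each list by smallest p. All genes named by rule, except the 4E-BP and eIF4E genes, had to be without overlap between genotypes. Genes outside the rule are said to be named after their values were seen. Alternatives varied the filter, scaling, arrays, block, moderation, probe set choice and threshold. A few genes that the rule names are not reported here.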

Additional observations from a re-analysis of the deposited data

Results flagged for a closer look

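The genes below were singled out because the knockout effect in polysomal RNA differed from that in total RNA in limma's interaction test (adjusted p = 8.4e-05 to 0.048), over all genes tested, of which 22.3% passed. This quantity is the polysomal difference minus the total difference in log2 units, so it uses the total RNA arrays of the comparison itself and does not support the total RNA difference independently. Of the 150 named genes in the text that were considered, 91 were singled out. For 86 the polysomal difference lay below the total one, and for 5 above it. The genes were picked mainly for called total RNA differences, so a gap against that difference is favoured by the choice. Of all 1876 genes called in total RNA 971 passed. Among the 1393 called higher 740 passed with a gap below 0, and among the 483 called lower 219 passed with a gap above 0. A value below 0 need not mean a weaker effect, since the falls of Srpr, Gsta2 and Ces1e were larger on polysomes. No cause was tested. The values above 0 were 2.09 for Zfp959, 1.27 for Eif5a2, 0.98 for Eif4e, 0.60 for Il7r and 0.49 for Rbm39, all of which fell in total RNA.

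The widest gaps, at or past -2, were -4.40 for C1qa, -4.14 for Pef1, -2.97 for Ppp5c, -2.70 for Lgals3bp, -2.62 for Oplah, -2.52 for Rasip1, -2.49 for Cldn3, -2.38 for Cdc42bpb and -2.32 for Tpgs1. Next came -2.31 for Cic, -2.29 for Alkbh5, -2.21 for Psmd7 and -2.20 for Chmp1a.

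Gaps between -2 and -1.5 were -1.90 for Rora, -1.87 for Srpr, -1.86 for Phlda3, -1.83 for Cbr2, -1.82 for Arhgdia, -1.69 for Gclm, -1.62 for Ccnd3, -1.59 for Tie1 and -1.55 for Mrpl34. Next came -1.53 for Mapkapk2 and -1.53 for Rps15.

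Gaps between -1.5 and -1 were -1.49 for Ctsd, -1.49 for Gprc5a, -1.48 for H2-Ab1, -1.41 for Hsp90ab1, -1.41 for Pdpk1, -1.40 for Fth1, -1.30 for Fgf18, -1.26 for Muc1 and -1.26 for Aars. Next came -1.25 for Pdgfb, -1.25 for Des, -1.25 for Tagln, -1.24 for Ier2, -1.23 for Gclc, -1.20 for Napsa, -1.20 for Sf3b3, -1.15 for Gstt3 and -1.13 for Mrps7. Others were -1.13 for Hdc, -1.10 for Ltf, -1.07 for Psmd13, -1.06 for Atp6v1a, -1.05 for Atp5d and -1.04 for Mfap4.

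Gaps nearer to 0 than -1 were -0.99 for Psme1, -0.97 for Psme2, -0.97 for Rps9, -0.95 for Lyz2, -0.93 for Atf5, -0.92 for Serpinh1, -0.92 for Psmb9, -0.91 for Eif6 and -0.91 for Eif5a. Next came -0.90 for Col4a2, -0.87 for Ctsz, -0.85 for Smpd1, -0.85 for P4hb, -0.85 for Aqp5, -0.85 for Srp68, -0.84 for Lcn2, -0.83 for Cldn5 and -0.81 for Hp. Others were -0.80 for Cd74, -0.77 for Ifi27, -0.75 for Car4, -0.75 for Psph, -0.75 for Rplp2, -0.74 for Fads1, -0.68 for Calr, -0.68 for Gadd45g and -0.66 for Gsta2. Then came -0.65 for Sars, -0.63 for Egfl7, -0.62 for Mrps26, -0.60 for Plin2, -0.60 for Atp5k, -0.58 for Sftpd, -0.54 for Elovl1, -0.51 for Acta2 and -0.45 for Pik3r2. Further values were -0.42 for Ager and -0.39 for Ces1e.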

How the results depend on the processing

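None of the 1876 calls changed sign under any alternative in which its gene was tested, but the number of calls moved. The main settings called 1876 genes, 1393 higher and 483 lower. Testing all probe sets gave 4216 called and 2655 lower, 37.0% of calls higher. The dim probe sets that this adds had lower medians on the knockout arrays. Quantile normalization gave 779 lower (60.6% of calls higher) and equal array medians 852 lower (55.2%). At an adjusted p under 0.01, limma called 739 genes, 633 higher and 106 lower (85.7% higher), and 473 in the interaction. With a minimum fold of 1.5, limma called 69, of which 65 were higher and 4 lower (94.2% higher), and 37 in the interaction. Leaving out each array in turn gave 964 calls (without knockout total replicate 2) to 2163 (without wild-type total replicate 3), 783 to 1461 higher, 181 to 702 lower, a share higher of 67.5% to 81.5%, and 1068 to 2087 in the interaction. Other filters, the trend, the removal of repeated rows and the mean of probe sets gave 1721 to 1916 calls. The 6 total arrays alone gave 1438, with 329 lower. Of the 158 named calls, 133 held without each single array and 140 with the 6 total arrays alone. With these 6 arrays the calls for Eif4ebp1, Lyz2, Cfd, Iqub, Ccdc39, Mcl1 and Pik3r2 were lost, besides those given above. With those 6 arrays and the replicate block 127 held. At an adjusted p under 0.01 the number was 121, and with a minimum fold of 1.5 it was 29.

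The replicate letters A, B and C are not explained in the labels. For total RNA, deviations of arrays with the same letter correlated at -0.071 to 0.068 and those with different letters at -0.068 to 0.065. The letters were therefore not taken to pair the arrays. In polysomal RNA same-letter pairs stood at 0.089 and the others at -0.089 to 0.014. A replicate block by letter within each kind of RNA gave 310 lower and 1178 in the interaction, and the 6 total arrays with that replicate block gave 1073 called, 860 higher and 213 lower.

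Signals near the floor limit the size of a fold, and 3 arrays a group limit precision. Promoter GC content could not be compared, since under 80% of the higher genes had a window. Source of the mice and genotype cannot be told apart.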

Other observations

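Gene families were looked at by the start of their symbols after values were seen, so they are descriptions. Of 136 tested genes named Zfp, most of them zinc finger transcription factors, 27 were called lower and 4 higher in knockout total RNA. In all 22.8% were called, close to the 23.2% of all genes, of which 5.97% were lower and 17.2% higher. Their median difference was -0.13 in total and 0.18 in polysomal RNA, against 0.09 for all genes in total RNA. Zfp607b, Zfp974 and Zfp69 were among those lower, at -1.04, -1.07 and -0.79. Zfp445 rose by 1.20, from 7.12, 6.67 and 7.14 log2 on the wild-type arrays to 8.17, 8.21 and 8.15 on the knockout arrays. Zfp367, a zinc finger gene, was 0.31 lower in total RNA and 1.07 higher on polysomes.

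Of 44 tested Rab genes, small GTPases of membrane traffic, 11 were higher and 1 lower (27.3% called, near the 23.2% of all genes; median 0.14). Of 11 tested Timm genes, of the import machinery of mitochondria, 4 were higher and none lower (36.4% called; median 0.37). Of 149 tested Slc genes, membrane transporters, 21 were higher and 12 lower (22.1% called; median 0.01). Probe sets tested but matched to no gene numbered 5272, of which 21.5% were called, 537 of 1131 of them higher.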
